A study of Mus musculus with 4 samples.

Results

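The genes described here encode the centromere, the kinetochore and the spindle assembly checkpoint, and they were followed in IgA-positive cells of the mouse small intestine sorted by surface CD11b. The list holds 41 members, chosen by gene symbol from the CENP, NDC80, MIS12 and SKA complexes, the checkpoint and the chromosomal passenger complex. Of these, 40 had at least 1 probe set of their own on the array, 88 probe sets in all, and 39 had one above the low-signal filter (a signal of about 9.51), out of 12645 genes tested. The 2 remaining members were Oip5, whose 1 probe set lay below that filter, and Hjurp, which shared every probe set with other gene symbols. Cells came from untreated, wild-type (WT) female BALB/c mice aged 9 weeks. The CD11b+ IgA+ fraction and the CD11b- IgA+ fraction were each hybridised on 2 Affymetrix arrays. For either fraction, replicate 1 started from 1 µg of total RNA and the One-Cycle labelling kit, and replicate 2 from 0.1 µg and the 3' IVT Express kit, so the fractions can be compared within a kit. Separate mice, separate sorts or pooled mice behind the arrays are not stated in the labels, so p-values measure no more than the spread among these samples, possibly a technical one.

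The centromere is marked by nucleosomes that carry CENP-A in place of histone H3. On it sits a constitutive network of CENP proteins, and in mitosis this network recruits the NDC80 and MIS12 complexes, which bind spindle microtubules. Checkpoint kinases and MAD and BUB proteins delay anaphase while any kinetochore is unattached, and the chromosomal passenger complex, built around Aurora B, corrects faulty attachments. Many of these genes are transcribed mainly in late S, G2 and M phase, and dividing plasmablasts hold more of their mRNA than resting plasma cells.

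Signals below are quantile-normalized probe-set intensities. Wherever a fraction has a pair of values, the One-Cycle array comes first and the 3' IVT Express array second. A signal depends on its probes, so levels are compared between arrays and never between genes. The sort was visible in Itgam, the CD11b gene, at 189 and 109 on CD11b-positive arrays, against 28.3 and 15.8 on CD11b-negative arrays. All 15 plasma cell markers checked were above the filter. Precision is limited by there being 2 arrays a side.

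Most of these genes stood higher in the CD11b-positive fraction with either kit. Of the 39 members above the filter, 35 (89.7%) were higher in CD11b-positive cells with both kits, 1 was lower with both and 3 went opposite ways, while 31.6% of all genes tested were higher and 30.5% lower with both kits. Their median log2 difference, CD11b-positive minus CD11b-negative, was 0.81 (quartiles 0.47 and 1.28), with 0.83 within the One-Cycle kit and 0.90 within the 3' IVT Express kit. The median over all genes tested was 0.0027. Both CD11b-positive arrays lay above both CD11b-negative arrays for 27 members (69.2%), against 18.3% of all genes, with a gap of 2-fold or more between the closest arrays for 6, namely Cenph, Cenpi, Cenpl, Cenpp, Spc24 and Cdca8, against 0.34% of all genes. In RNA of a sorted population, fewer cells that express a gene and less of its RNA per cell cannot be told apart.

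No member passed limma without the kit in the model: 0 were called at an adjusted p under 0.05, as for 0% of all genes, and the smallest adjusted p of a member was 0.467. At an unadjusted p under 0.05, 21 members were higher and 0 lower, where 3.14% of all genes were higher. When the labelling kit entered as a replicate block, limma called 22 of the 39 (56.4%) higher and 0 lower, beside 3.73% of all genes called higher and 4.14% called lower. That model has 1 residual degree of freedom per gene and leans on a variance prior shared across genes. Adjusted p-values given "with the block" come from it, and "passed" below means an adjusted p under 0.05 there. The 22 ran from 1.61-fold to 3.14-fold, and the 17 others from a log2 difference of -0.65 to 1.02. Standard errors of the members' log2 differences ran from 0.21 to 0.54 without the block and from 0.12 to 0.50 with it. Fold changes are on the log2(signal + 3) scale, which understates differences of dim genes.

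**Figure D1:**
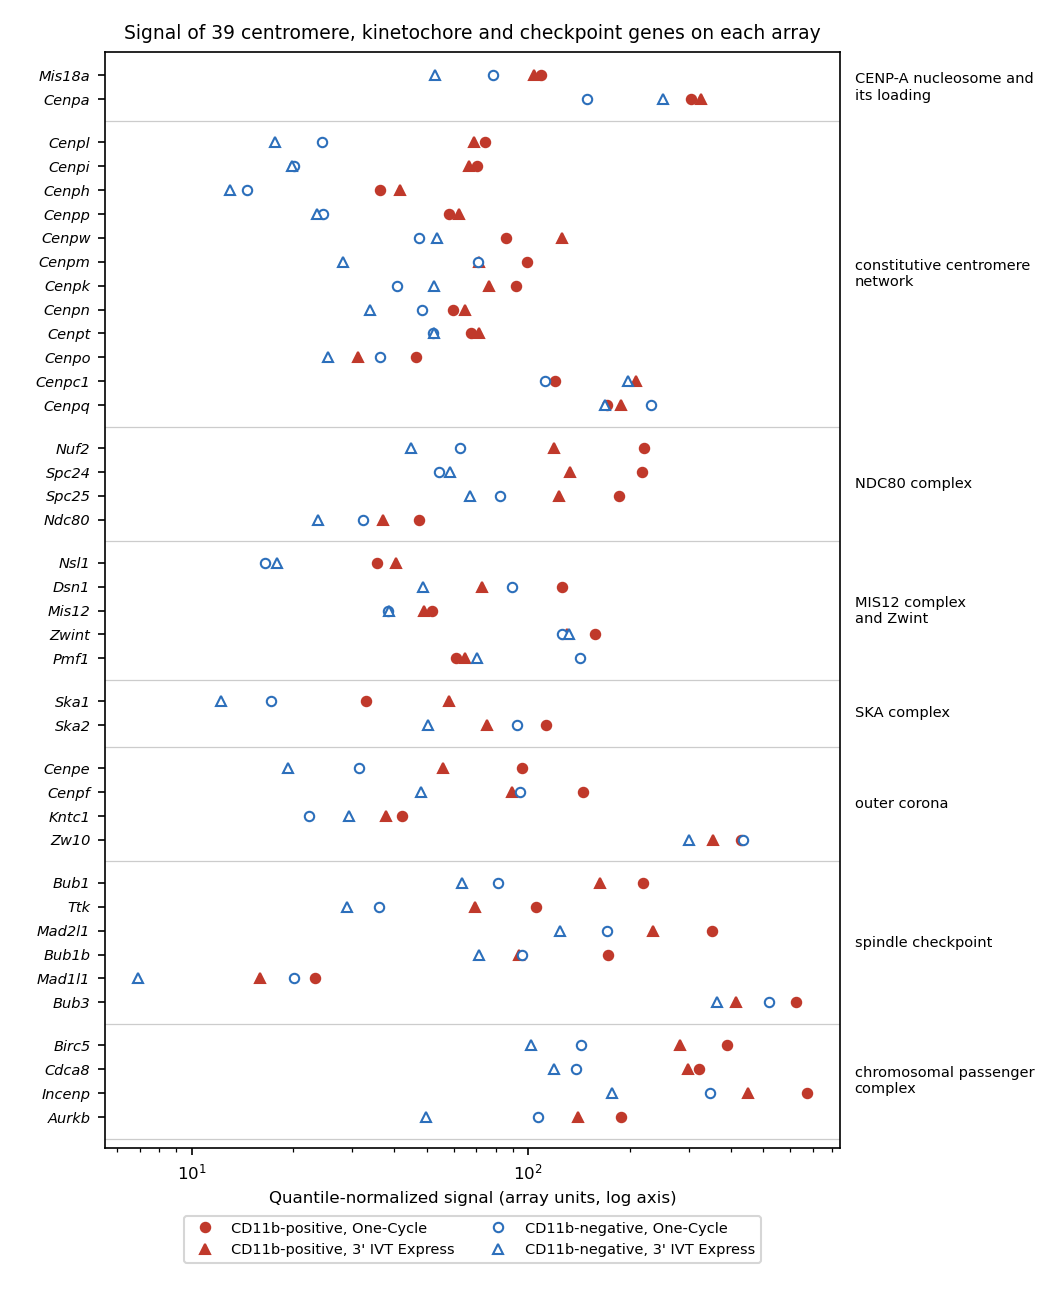
Quantile-normalized signal (log axis) of the 39 members above the filter on each of the 4 arrays, grouped by complex. Filled red symbols are CD11b-positive and open blue symbols CD11b-negative arrays, circles the One-Cycle and triangles the 3' IVT Express kit; for 27 genes both red symbols lie to the right of both blue ones.

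Beside this difference, other things moved with the fractions. Markers of cycling cells outside the list did so too: Mki67 had signals of 1818 and 1341 on CD11b-positive arrays, against 1042 and 579 on CD11b-negative arrays, and Top2a, the topoisomerase of dividing cells, 831 and 559.9 in CD11b-positive against 439 and 271 in CD11b-negative cells. Their log2 differences were 1.00 and 0.98, and 15 of the 39 members exceeded that of Mki67. Of 28 epithelial markers above the filter (of 30 on the array), 25 were lower with both kits and 0 higher, and their summed signal was 5517 and 3932 on CD11b-positive arrays, against 9887 and 9595 on CD11b-negative arrays.

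Among other cell types, 16 of 22 macrophage, monocyte and dendritic cell markers were above the filter, 9 higher and 3 lower with both kits (summed signal 1741 and 1259 in CD11b-positive against 1692 and 1478 in CD11b-negative cells). Lyz1, which also stands on the epithelial list, gave much of that sum, and without it, as chosen after seeing the data, the 15 others summed to 1020.3 and 757 in CD11b-positive against 676 and 565 in CD11b-negative cells, higher with both kits. For T, NK and innate lymphoid cells, 17 of 20 markers were above the filter, with 1 higher and 10 lower (3186 and 1670 in CD11b-positive against 6121 and 2384 in CD11b-negative cells), and for germinal centre B cells 10 of 12, with 1 higher and 6 lower (3919 and 4740.5 in CD11b-positive against 5137 and 6410.1 in CD11b-negative cells). Of 11 mature B cell markers, 2 were higher and 4 lower with both kits (3013 and 2186 in CD11b-positive against 4729 and 2097 in CD11b-negative cells), and of the 15 plasma cell markers 0 were higher and 11 lower (63243 and 62401 in CD11b-positive against 66160 and 66661 in CD11b-negative cells). Igha and Jchain, the brightest of the plasma cell markers, shared signals such as 12632.9 and 11010.3. Quantile normalization sets such values by rank, so their part of the plasma cell sum reflects rank. Granulocyte and mast cell markers above the filter numbered 8 of 16, with 1 higher and 5 lower (300.1 and 207 in CD11b-positive against 402 and 295 in CD11b-negative cells), and stromal and endothelial ones 9 of 14, with 2 higher and 2 lower (234 and 247 in CD11b-positive against 215 and 290 in CD11b-negative cells). Of the defining markers, Cx3cr1, Mrc1, C1qa, Aif1, Tlr4 and Cd163 of the macrophage list and Mybl1 and Rgs13 of the germinal centre list were below the filter. So were S100a8, S100a9, Camp, Epx, Siglecf, Ccr3, Fcer1a and Ms4a2 of the granulocyte and mast cell list, and Cd8b1, Tcra and Gata3 of the T cell list. The epithelial list lost Ascl2 and Cdx1, and the stromal list Pdgfra, Pdgfrb, Myh11, Des and Vwf. The 3' to 5' signal ratio of beta-actin, a measure of RNA length, was 1.43 and 1.61 on CD11b-positive arrays, against 1.90 and 1.84 on CD11b-negative arrays, whereas that of Gapdh was nearly equal, at 0.682 and 0.710 on CD11b-positive arrays and 0.685 and 0.704 on CD11b-negative arrays. The part of these markers and of the beta-actin ratio in the result was not tested.

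**Figure D2:**
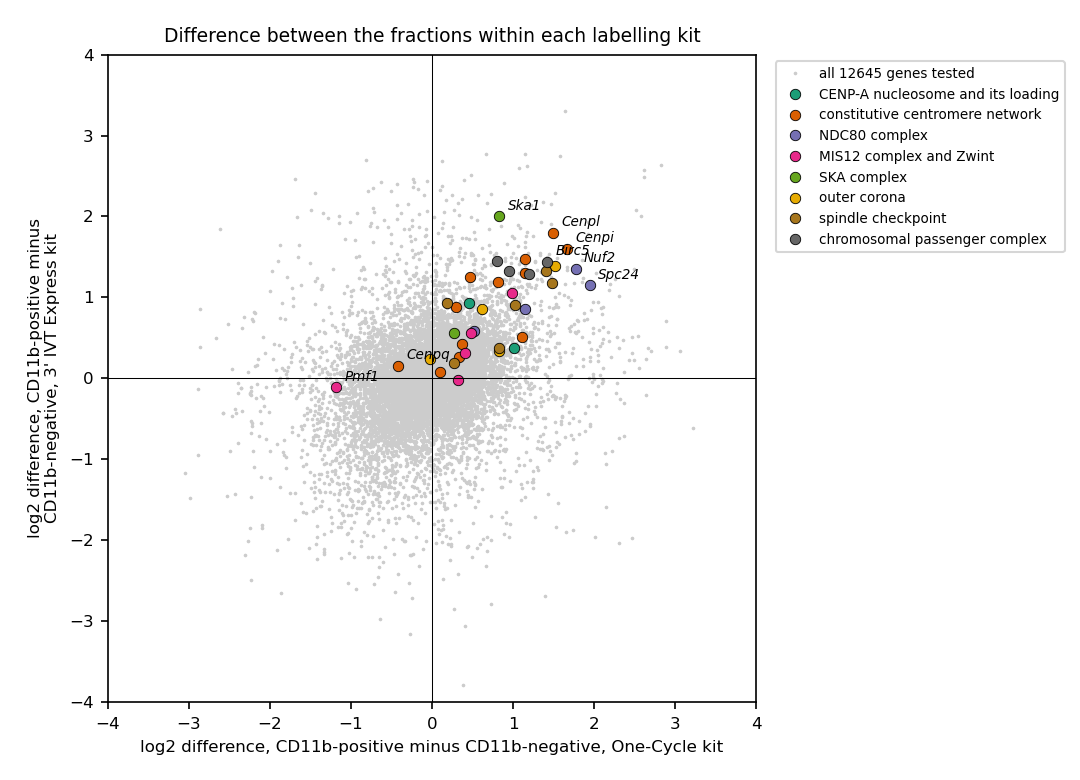
Log2 difference between the fractions within the One-Cycle kit (x axis) and within the 3' IVT Express kit (y axis), 1 point per gene. Grey points are all genes tested and coloured points the 39 members by complex; 35 members lie in the upper right, above 0 on both axes, and Pmf1 alone among them at the lower left.

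Complexes differed in their medians. The NDC80 complex stood at a median log2 difference of 1.27 over 4 genes and the chromosomal passenger complex at 1.19 over 4, followed by the SKA complex at 0.92 over 2, the constitutive centromere network at 0.84 over 12, the spindle checkpoint at 0.78 over 6, the CENP-A group at 0.69 over 2 and the outer corona at 0.66 over 4. The MIS12 complex with Zwint was lowest, at 0.36 over 5 genes, and was the 1 group with 0 members passed with the block. It was also lowest within both kits, at 0.40 with One-Cycle and 0.32 with 3' IVT Express. The order of the others depended on the kit: the NDC80 complex was at 1.46 and 1.00, the passengers at 1.08 and 1.38, the SKA complex at 0.55 and 1.28. With 1 array left out, the MIS12 median ran from 0.14 (leaving out CD11b-positive replicate 1) to 0.40, was 0.19 when CD11b-negative replicate 2 was left out, and stayed the lowest of the 8 each time. The checkpoint median was 0.50 with CD11b-positive replicate 1 left out and 1.18 with CD11b-negative replicate 1 left out, and the SKA median was 0.60 when CD11b-negative replicate 2 was. These orders were not tested, since with 2 arrays a side the smallest p of an exact permutation test is 0.333.

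**Figure D3:**
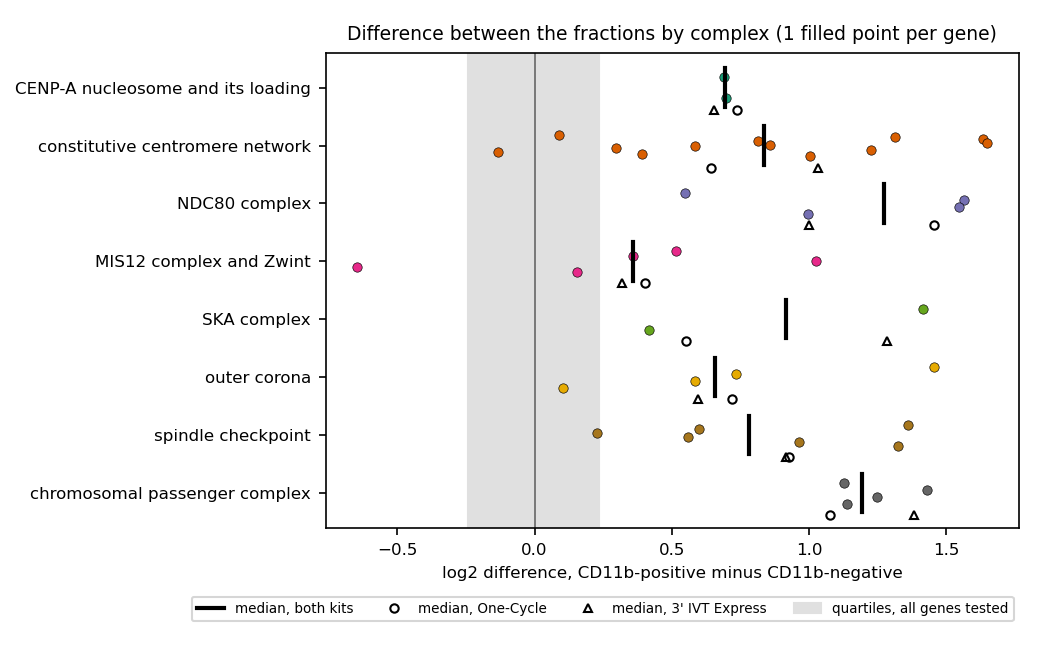
Log2 difference between the fractions (x axis) of each member, grouped by complex, with the median over both kits as a bar and the medians within each kit as open symbols. The grey band spans the quartiles of all genes tested; the MIS12 group has the lowest median, 0.36, and the NDC80 complex the highest, 1.27.

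The 4 members of the CENP-A group build and load the centromeric nucleosome. Cenpa, the histone variant itself, had signals of 304 and 325 on CD11b-positive arrays, against 149 and 251 on CD11b-negative arrays, so the fractions did not overlap but the gap was smaller with the 3' IVT Express kit (log2 differences 1.01 and 0.37). It passed (1.61-fold, adjusted p = 0.00452 with the block), yet at a log2 difference of 0.32 when CD11b-negative replicate 1 was left out and of 1.06 when CD11b-negative replicate 2 was. Mis18a, a subunit of the complex that primes centromeres for new CENP-A, was at 109 and 104 in CD11b-positive against 78.5 and 53.0 in CD11b-negative cells and passed narrowly (1.62-fold, adjusted p = 0.0499 with the block); without CD11b-negative replicate 2 it was at 0.43 log2. Oip5, its partner in that complex, had low signals of 3.05 and 8.88 in CD11b-positive against 7.08 and 14.4 in CD11b-negative cells, so no fold is given. Hjurp, the CENP-A chaperone, was read by 5 probe sets that also name other genes. The brightest stood at 607 and 434 on CD11b-positive arrays, against 323 and 264 on CD11b-negative arrays.

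Of the 12 members of the constitutive centromere network, 11 were higher with both kits and 7 passed. Cenpl and Cenpi had the largest differences of the whole list. Cenpl had signals of 74.3 and 69.05 on CD11b-positive arrays, against 24.4 and 17.7 on CD11b-negative arrays (3.14-fold, log2 1.65 ± 0.31 SE without and 0.31 with the block, adjusted p = 6.48e-04 with the block). Cenpi was at 70.3 and 66.5 in CD11b-positive against 20.1 and 19.9 in CD11b-negative cells (3.10-fold, adjusted p = 8.80e-04 with the block). In both genes the arrays of a fraction lay close together and the fractions were far apart. Cenph, which forms a subcomplex with Cenpi and Cenpk, was at 36.2 and 41.6 in CD11b-positive against 14.6 and 13.04 in CD11b-negative cells (2.49-fold, adjusted p = 0.0398 with the block). Cenpk itself was at 91.9 and 76.5 in CD11b-positive against 40.9 and 52.6 in CD11b-negative cells (1.76-fold, adjusted p = 0.0451 with the block), and Cenpm, of the same subcomplex, at 99.3 and 71.2 in CD11b-positive against 71.1 and 28.2 in CD11b-negative cells (1.81-fold, adjusted p = 0.0385 with the block). Cenpm moved with single arrays: its log2 difference of 0.86 became 0.23 without CD11b-negative replicate 2 and 1.48 without CD11b-negative replicate 1.

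Cenpp stood at 58.1 and 62.3 on CD11b-positive arrays, against 24.5 and 23.5 on CD11b-negative arrays (2.34-fold, adjusted p = 0.0121 with the block). It belongs, with Cenpo and Cenpq, to the subcomplex that also holds CENP-U and CENP-R. Cenpo was at 46.4 and 31.1 in CD11b-positive against 36.3 and 25.5 in CD11b-negative cells, with overlapping fractions. A dimmer Cenpo probe set (20.4 and 16.9 in CD11b-positive against 9.34 and 3.71 in CD11b-negative cells) differed by a log2 of 1.24 without overlap. On both CD11b-negative arrays it was below the filter signal of about 9.51, so only its CD11b-positive signals carried it past the filter. Cenpq was at 171 and 189 in CD11b-positive against 231 and 169 in CD11b-negative cells, lower with One-Cycle and higher with 3' IVT Express. Cenpw, a histone-fold protein, was at 85.9 and 126 in CD11b-positive against 47.4 and 53.5 in CD11b-negative cells (2.00-fold, adjusted p = 0.00565 with the block). Cenpt, its histone-fold partner and a platform for NDC80, was at 67.8 and 71.4 in CD11b-positive against 52.0 and 52.6 in CD11b-negative cells. The fractions did not overlap for either gene, but Cenpt did not pass (1.31-fold, adjusted p = 0.428 with the block). Cenpn, which reads the CENP-A nucleosome, was at 59.8 and 64.8 in CD11b-positive against 48.4 and 33.8 in CD11b-negative cells (log2 0.59, adjusted p = 0.241 with the block). Cenpc1, the scaffold that ties the nucleosome to the outer kinetochore, was at 120.2 and 209 in CD11b-positive against 112 and 198 in CD11b-negative cells. Its log2 difference was 0.09, and its arrays separated by kit rather than by fraction.

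The NDC80 complex is the main microtubule coupler of the kinetochore, and all 4 of its genes were higher in the CD11b-positive fraction without overlap. Nuf2 had signals of 221 and 119.6 on CD11b-positive arrays, against 62.5 and 44.9 on CD11b-negative arrays (2.96-fold, adjusted p = 7.45e-06 with the block). Spc24 was at 218 and 133 in CD11b-positive against 54.4 and 58.5 in CD11b-negative cells (2.92-fold, adjusted p = 1.34e-05 with the block), and its partner Spc25 at 186 and 124 in CD11b-positive against 82.6 and 67.1 in CD11b-negative cells (2.00-fold, adjusted p = 0.00114 with the block). Ndc80, the partner of Nuf2 in the microtubule-binding head, was at 47.4 and 36.9 in CD11b-positive against 32.2 and 23.7 in CD11b-negative cells, a smaller difference (1.46-fold) that did not pass (adjusted p = 0.393 with the block).

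The MIS12 complex joins the centromere network to NDC80. Nsl1 had signals of 35.6 and 40.5 on CD11b-positive arrays, against 16.5 and 17.9 on CD11b-negative arrays, a 2.03-fold difference with no overlap that did not pass (adjusted p = 0.106 with the block). Dsn1 was at 126 and 73.1 in CD11b-positive against 89.6 and 48.8 in CD11b-negative cells, higher within either kit but overlapping between kits, and Mis12 at 51.7 and 48.9 in CD11b-positive against 38.4 and 38.7 in CD11b-negative cells. Pmf1 was the 1 member lower with both kits, at 61.1 and 65.0 in CD11b-positive against 143 and 70.3 in CD11b-negative cells. Its log2 differences were -1.19 and -0.11 (adjusted p = 0.114 with the block), and CD11b-negative replicate 1 stood far above the other 3 arrays. These values came from its only probe set above the filter. Another, below it, was at 28.3 and 5.01 in CD11b-positive against 4.75 and 5.59 in CD11b-negative cells, opposite between the kits. Zwint, which binds the scaffold KNL1 and recruits the corona, was at 158 and 131 in CD11b-positive against 126 and 132 in CD11b-negative cells, opposite between the kits. In the SKA complex, which helps kinetochores follow shortening microtubules, Ska1 was at 32.9 and 58.04 in CD11b-positive against 17.2 and 12.2 in CD11b-negative cells (2.67-fold, adjusted p = 0.0245 with the block). Within One-Cycle the log2 difference was 0.83, and within 3' IVT Express 2.00. Ska2 was at 113 and 75.7 in CD11b-positive against 92.9 and 50.3 in CD11b-negative cells and overlapped (1.34-fold, adjusted p = 0.314 with the block). A dimmer Ska2 probe set, at 30.0 and 30.8 in CD11b-positive against 16.0 and 16.4 in CD11b-negative cells, differed by a log2 of 0.80 without overlap.

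Corona proteins attach first to microtubules and carry checkpoint proteins. Cenpe, a kinesin that moves chromosomes to the spindle equator, had signals of 95.6 and 55.8 on CD11b-positive arrays, against 31.4 and 19.4 on CD11b-negative arrays (2.74-fold, adjusted p = 0.00148 with the block). Cenpf, a large coiled-coil protein of the corona, was at 146 and 89.4 in CD11b-positive against 94.2 and 48.1 in CD11b-negative cells (1.66-fold, adjusted p = 0.0305 with the block). Its fractions overlapped between kits, and its log2 difference of 0.73 was 0.27 with CD11b-negative replicate 2 left out, 1.20 with replicate 1 of that fraction left out, and 0.39 when CD11b-positive replicate 1 was left out. Zw10 and Kntc1 are subunits of the RZZ complex, which brings dynein and MAD1 to the kinetochore. Kntc1 was at 42.1 and 37.8 in CD11b-positive against 22.4 and 29.2 in CD11b-negative cells, not overlapping and not passed (log2 0.58, adjusted p = 0.378 with the block). Zw10, which also acts in membrane traffic of non-dividing cells, was at 427 and 354 in CD11b-positive against 436 and 300.4 in CD11b-negative cells, with no common direction.

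Among the 6 checkpoint genes, all were higher with both kits and 3 passed. Bub1, a kinase that marks centromeric chromatin, had signals of 219 and 164 on CD11b-positive arrays, against 81.1 and 63.7 on CD11b-negative arrays (2.57-fold, adjusted p = 1.11e-05 with the block). Ttk, the kinase MPS1 that starts checkpoint signalling, was at 105 and 69.4 in CD11b-positive against 36.0 and 29.04 in CD11b-negative cells (2.51-fold, adjusted p = 0.00147 with the block), and Mad2l1, the MAD2 inhibitor of CDC20, at 352 and 235 in CD11b-positive against 171 and 125 in CD11b-negative cells (1.95-fold, adjusted p = 8.44e-05 with the block). None of these 3 overlapped between fractions. Bub1b, the CDC20 inhibitor BUBR1, was at 172 and 93.6 in CD11b-positive against 95.9 and 71.6 in CD11b-negative cells, overlapping by a small margin (1.52-fold, adjusted p = 0.0695 with the block). The Bub1b log2 difference of 0.60 became 0.17 on leaving out CD11b-positive replicate 1, 1.03 on leaving out replicate 2 of that fraction, and 0.40 when CD11b-negative replicate 2 was left out. Of its other probe sets, 1 had a log2 difference of 0.95 without overlap and 1, near the filter, of 0.07. Bub3, the shared partner of BUB1 and BUBR1, was at 623 and 415 in CD11b-positive against 518 and 364 in CD11b-negative cells (1.17-fold, adjusted p = 0.303 with the block). Of its dimmer probe sets above the filter, those at log2 0.88 and 0.52 did not overlap, and those at 0.06 and 0.37 did. For Mad1l1, which holds MAD2 at the kinetochore, signals of 23.3 and 15.9 in CD11b-positive against 20.1 and 6.95 in CD11b-negative cells lay near the filter. By its brightest probe set, Bub3 differed more by kit (log2 0.54) than by fraction (0.23). So did Mad1l1 (0.84 against 0.56) and, by a small margin, Bub1b (0.63 against 0.60).

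All 4 chromosomal passenger genes were higher without overlap, by their brightest probe set, and passed. Birc5, survivin, had signals of 388 and 282 on CD11b-positive arrays, against 143 and 102 on CD11b-negative arrays, with nearly equal log2 differences of 1.42 and 1.44 within the kits (2.70-fold, log2 1.43 ± 0.27 SE without the block, adjusted p = 2.44e-07 with the block). Cdca8, borealin, was at 323 and 297 in CD11b-positive against 139 and 119.7 in CD11b-negative cells, also alike in both kits (1.20 and 1.29; 2.37-fold, adjusted p = 2.20e-06 with the block). Incenp, the scaffold of the complex, was at 672 and 449 in CD11b-positive against 346 and 178 in CD11b-negative cells (2.20-fold, adjusted p = 8.97e-07 with the block), and Aurkb, the Aurora B kinase, at 189 and 141 in CD11b-positive against 107 and 49.7 in CD11b-negative cells (2.18-fold, adjusted p = 3.91e-04 with the block). A second Incenp probe set, at 121 and 121 in CD11b-positive against 124 and 55.3 in CD11b-negative cells, overlapped and went opposite ways within the kits (log2 -0.03 and 1.09, mean 0.53). Without CD11b-negative replicate 2, whose signals were lowest, the log2 difference was 0.66 for Incenp against 1.14 with all arrays, and 0.60 for Aurkb against 1.13.

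Part of the list also differed between the kits. Averaged over fractions, One-Cycle arrays exceeded 3' IVT Express arrays by a median log2 of 0.60 for passenger, 0.54 for corona and 0.53 for checkpoint genes, but 0.01 for the constitutive network, with -0.02 over all genes tested. Each kit held 1 array of either fraction. The kit also went with the amount of RNA and with the replicate, so these cannot be told apart.

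Of 30 further centromere and kinetochore genes, 29 were above the filter. Of these, 19 were higher and 3 lower with both kits, where 31.6% of all genes tested were higher and 30.5% lower. With the block, 10 passed as higher and 0 as lower, beside 3.73% and 4.14% of all genes. The median log2 difference of the 29 was 0.78, against 0.0027 over all genes tested. The 6 with the smallest unblocked p were Cdc20, the anaphase activator that the checkpoint inhibits (1104 and 900.1 on CD11b-positive arrays, against 460.0 and 472 on CD11b-negative arrays), Kif2c, a microtubule-depolymerising kinesin (88.7 and 71.3 in CD11b-positive against 32.9 and 29.3 in CD11b-negative cells), the centromeric cohesin protectors Sgo1 (80.2 and 74.7 in CD11b-positive against 23.8 and 4.90 in CD11b-negative cells) and Sgo2a (78.01 and 67.8 in CD11b-positive against 35.4 and 32.4 in CD11b-negative cells), Ercc6l, the centromere helicase PICH (86.1 and 73.02 in CD11b-positive against 39.6 and 31.9 in CD11b-negative cells), and Pttg1, securin (1559 and 1320.2 in CD11b-positive against 1018 and 793 in CD11b-negative cells). All 6 passed with the block (adjusted p = 1.82e-07 to 0.0156). Of the 3 lower with both kits, Cenpb, which binds a satellite sequence, is given here, chosen after its values were seen. It was at 40.4 and 71.8 in CD11b-positive against 54.6 and 99.3 in CD11b-negative cells and did not pass (adjusted p = 0.356 with the block).

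Other probe sets of the same genes did not always repeat the result of the brightest one. In all, 69 probe sets of members lay above the filter, of which 49 were higher with both kits, 5 lower and 15 opposite. These counts include the 39 brightest, which gave 35 of the 49, 1 of the 5 and only 3 of the 15 opposite ones. For 19 genes with several such probe sets, 23 of the 30 others had the sign of the brightest in the mean over both kits. The other probe sets of Cdca8, Cenpp and Aurkb gave sizes similar to the brightest. Cenpn and Cenpo had a dimmer probe set with a larger difference (1.40 against 0.59 and 1.24 against 0.30). So had Ska2 (0.80 against 0.42), Bub1b (0.95 against 0.60) and Bub3 (0.88 against 0.23), though others of Bub1b and Bub3 were at 0.07 and 0.06. Dimmer ones of Bub1 and Spc25 had smaller differences (0.59 against 1.36 and 0.59 against 1.00). Those of Cenpo and Bub1 were below the filter signal of about 9.51 on both CD11b-negative arrays. For Cenpa, Cenpf, Cenpw, Zw10 and Zwint at least 1 probe set went against the brightest. In Cenpw it stood at -0.31 against 1.00, in Cenpa at -0.11 against 0.69, and the second probe set of Cenpe, though of the same sign, was at 0.20 against 1.46. Dimmer ones of Mis18a and Cenpk were also of the same sign but smaller (0.33 against 0.70 and 0.37 against 0.81). That of Cenpk went opposite ways within the kits (log2 1.18 and -0.43).

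**Figure D4:**
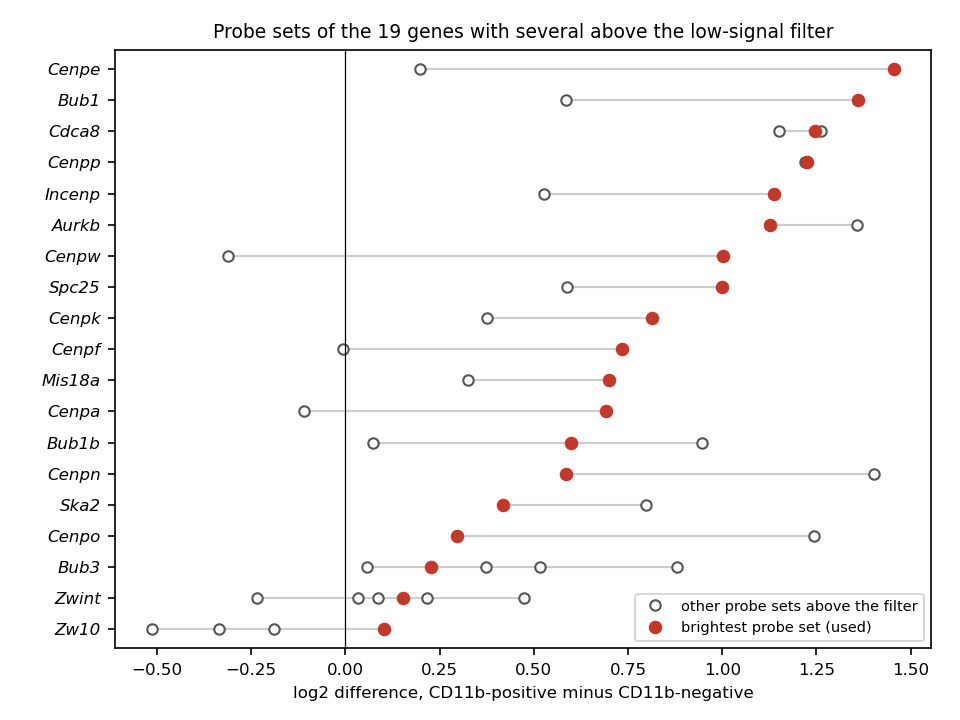
Log2 difference between the fractions (x axis) for every probe set above the filter of the 19 genes that have several; filled points are the brightest probe set, open points the others. Open points lie to the left of 0 for Cenpw, Cenpf, Cenpa, Zwint and Zw10, while those of Cdca8 and Cenpp lie close to the filled point.

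Promoters of these genes were read because many members moved together and because late cell-cycle genes are known for a cell cycle homology region (CHR), bound by the DREAM and MuvB complexes, next to CCAAT boxes bound by NF-Y. Windows ran from 250 bases before to 50 after the start site, from RefSeq (GRCm38.p6), and 34 of the 39 members had one, taking the first listed per gene. A CHR, searched on both strands as TTTGAA and in its other form as TTTAAA, was found in 19 of the 34 (55.9%), and in 19.4% of 10207 windows of genes tested and 27.8% of all 27025 windows. A CCAAT box, searched by those letters on both strands, was in 23 (67.6%), against 38.3% and 37.9%. Both were in 15 (44.1%), against 7.65% and 10.9%. An E2F-type motif, searched on both strands with the letters TTCCCGC and, as further forms, the letters TTGGCGC, likewise the letters TTCGCGC and also the letters TTGCCGC, was in 10 (29.4%), against 16.5% and 9.69%; TTGGCGC on the opposite strand can overlap a CCAAT box. Within the list, members with a CHR had a median log2 difference of 0.60 and those without of 0.81, with 0.73 and 0.56 for the CCAAT box, 0.55 and 0.77 for the E2F-type motif, and 0.69 and 0.70 for CHR and CCAAT box together. These differences were not tested.

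The windows of the 3 members with the largest differences among those with a window, and of Cenpc1, the member nearest to no difference, are printed 5′ to 3′ on the strand of the gene, with every CHR, CCAAT box and E2F-type motif in capitals. They show how the motifs lay in members of large and of small difference. Cenpl lies at chr1:161070517-161070816 on the plus strand, Cenpi at chrX:134307834-134308133 on the plus strand, Nuf2 at chr1:169531415-169531714 on the minus strand and Cenpc1 at chr5:86065534-86065833 on the minus strand.
Cenpl: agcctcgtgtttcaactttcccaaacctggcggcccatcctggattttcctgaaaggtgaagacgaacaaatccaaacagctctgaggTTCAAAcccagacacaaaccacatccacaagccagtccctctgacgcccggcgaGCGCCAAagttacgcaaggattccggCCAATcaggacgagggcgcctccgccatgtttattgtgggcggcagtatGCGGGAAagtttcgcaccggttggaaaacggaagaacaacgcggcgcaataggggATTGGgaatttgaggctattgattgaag
Cenpi: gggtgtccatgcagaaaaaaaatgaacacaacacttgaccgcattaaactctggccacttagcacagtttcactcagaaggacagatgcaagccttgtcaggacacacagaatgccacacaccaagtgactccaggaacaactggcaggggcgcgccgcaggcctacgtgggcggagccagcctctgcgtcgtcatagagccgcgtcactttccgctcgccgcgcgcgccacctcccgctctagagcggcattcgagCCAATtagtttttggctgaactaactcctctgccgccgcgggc
Nuf2: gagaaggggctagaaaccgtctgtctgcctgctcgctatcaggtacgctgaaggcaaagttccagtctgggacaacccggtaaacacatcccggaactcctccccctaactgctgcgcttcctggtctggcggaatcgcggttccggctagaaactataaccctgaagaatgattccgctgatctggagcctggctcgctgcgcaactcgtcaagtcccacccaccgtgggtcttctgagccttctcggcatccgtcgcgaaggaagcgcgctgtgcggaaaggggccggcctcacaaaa
Cenpc1: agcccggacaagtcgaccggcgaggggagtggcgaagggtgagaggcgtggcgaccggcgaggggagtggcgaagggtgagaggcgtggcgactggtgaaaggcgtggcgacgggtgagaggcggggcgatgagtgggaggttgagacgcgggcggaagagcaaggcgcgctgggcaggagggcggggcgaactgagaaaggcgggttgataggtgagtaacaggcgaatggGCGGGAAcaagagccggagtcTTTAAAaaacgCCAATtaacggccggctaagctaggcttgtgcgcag
Cenpl held all 3 kinds of motif, Cenpi 1 CCAAT box 8 bases into the transcript, and Nuf2 none of the letters searched. Cenpc1, at a log2 difference of 0.09, also held all 3 kinds, its CHR starting at base 4 and its CCAAT box at base 15 after the start site.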

How the data were processed

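The authors deposited linear intensity signals, 1 for each probe set. Per the submitters' processing notes they used MAS5 and Affymetrix Expression Console; the scaling is not stated there. The array has 45101 probe sets: 64 controls, 34945 with 1 gene name in the platform annotation, 932 with several and 9160 with none here. Deposited 2% trimmed means ran from 73.8 to 90.3 in CD11b-positive and from 48.6 to 70.0 in CD11b-negative arrays, so the arrays were quantile-normalized. Signals plus a pseudocount of 3 were put on the log2 scale, probe sets with a mean log2 value above the 40th percentile kept, and the brightest per gene taken. In R 4.3.3, limma 3.58.1 (moderated by eBayes, trend on, 2-sided, adjusted over 12645 genes by Benjamini-Hochberg, called at an adjusted p under 0.05) was fitted without and with the kit as a replicate block. Both fits were also run on simulated data whose noise followed the variance prior and whose kit effect was additive, as the block model assumes. The only check set there was on the size of planted differences, so it cannot show that the p-values hold in these data. The labels name the kits, so the kit pairs 1 array of each fraction. Deviations of same-kit arrays from the fraction means correlated (r = 0.388 across genes, which are not independent). Members, complexes, marker lists and the rule for named genes (all members, Itgam, Mki67, Top2a, and 6 other kinetochore genes by smallest p, with Cenpb added after its values were seen) were chosen with earlier results of these data known, so no list is independent support. No protein sequences were used here. Alternatives were the scaling, pseudocount, filter, probe sets of a gene, kit block, variance trend and leaving out each array.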

Additional observations from a re-analysis of the deposited data

Results flagged for a closer look

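Probe sets that name Hjurp together with other genes lay outside the comparison. Of the 5, 3 had both CD11b-positive arrays above both CD11b-negative arrays, as had 18.3% of all genes tested. Their log2 differences, CD11b-positive minus CD11b-negative, were 0.808, 0.539 and 0.419. The probe set at 0.539 was dim, at 8.19 and 9.28 on CD11b-negative arrays, below the filter signal of about 9.51. The others overlapped between fractions, at 0.719 and 0.609, and were also higher with both kits. Which of the named genes gave the signal was not tested.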

How the results depend on the processing

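Across 16 alternatives, 576 of 610 log2 differences of single members kept their direction and their side of the threshold, 22 passed as well with kit as a replicate block, and 12, in 6 genes, changed sign. These were Cenpq on the signals as deposited (0.37) and centred on the array median (0.15), Zw10 with the mean of all probe sets (-0.23), and 9 values with 1 array left out. There the differences ran from -0.064 to 0.52 for Bub3 and from -0.16 to 0.37 for Zw10, below 0 without CD11b-positive replicate 1 or CD11b-negative replicate 2. They ran from -0.31 to 0.49 for Cenpc1, below 0 without CD11b-positive replicate 2 or CD11b-negative replicate 1, and from -0.35 to 0.088 for Cenpq, above 0 without CD11b-negative replicate 1. For Mad1l1 they ran from -0.049 to 1.17 and for Ska2 from -0.0070 to 0.84, below 0 without CD11b-negative replicate 2. The cause was not tested. Members called higher were 22 with the replicate block and 0 under the other 15 alternatives. All genes called higher and lower numbered 472 and 524 with the replicate block, 0 to 2 and 0 to 23 on leaving out 1 array (23 without CD11b-positive replicate 1), and 0 otherwise. The members' median of 0.81 was 1.18 on the signals as deposited, 0.96 centred on the median, 0.71 with a common trimmed mean, 0.71 with a pseudocount of 12, 0.73 with a filter at the 70th percentile (27 members), and 0.66 to 0.97 on leaving out 1 array. The deposited scaling and median centring moved the median of all genes by 0.42 and 0.21; relative to all genes the members' median was 0.71 to 0.84 under alternatives that kept all arrays. The 22 calls cannot be repeated without 1 array, since that model then has no residual degrees of freedom.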
